A study of Mus musculus with 35 samples.

Results

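Enzymes of 5 families that handle drugs, aldehydes, lipids and steroids were followed in the mouse lung. They were carboxylesterases (Ces), aldehyde dehydrogenases (Aldh), aldo-keto reductases (Akr), UDP-glycosyltransferases (Ugt), which include the glucuronosyltransferases, and sulfotransferases (Sult). All genes of the expression table whose symbol begins with 1 of these 5 stems followed by a digit were taken, except the 3 genes Akr1c14, Sult1a1 and Aldh1a2, which gave 66 of 22211 genes. They comprised 13 Ces, 20 Aldh, 15 Akr, 10 Ugt and 8 Sult genes. Of these, 45 reached a normalised value of 1 in at least 3 libraries and were tested (8 Ces, 18 Aldh, 10 Akr, 6 Ugt and 3 Sult), as were 16786 genes in all. The other 21 stayed near the bottom of the scale, with means between 0.0822 and 0.47 over the 35 libraries. Besides 5 Ces genes named with their family, they were Aldh3b3 and Aldh8a1, the reductase genes Akr1c18, Akr1c20, Akr1c21, Akr1cl and Akr1d1, the glucuronosyltransferase genes Ugt1a2, Ugt1a5, Ugt2a2 and Ugt2b34, and the sulfotransferase genes Sult1b1, Sult1c2, Sult1e1, Sult4a1 and Sult6b1.

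Carboxylesterases cut ester bonds in lipids, retinyl esters and many drugs. Aldehyde dehydrogenases oxidise aldehydes to acids, among them retinal to retinoic acid, and aldo-keto reductases reduce aldehydes and ketones to alcohols. Glucuronosyltransferases and sulfotransferases attach a sugar acid or a sulfate to the products, which makes them easier to excrete, and in the lung many of these enzymes are known from club cells of the airway lining and from alveolar cells.

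The study compared lungs of male C57BL/6 mice, 7 to 9 weeks old, at 2 times of the light cycle: ZT4, that is 4 h after lights on in a normal light cycle, and ZT16, reached at the same clock time in cabinets with an inverted cycle, so time and housing cannot be told apart. Wild-type mice received control IgG or the neutrophil-depleting antibody anti-Ly6G (clone 1A8), each at 3 µg per g, and MRP8-Cre;iDTR-flox mice, in which the MRP8 promoter, active in neutrophils and some other myeloid cells, drives Cre to switch on a diphtheria toxin receptor, received diphtheria toxin (DT) at 10 ng per g. All mice were injected on 2 consecutive days, and RNA came from the whole left lobe after perfusion. There were 7 mice for each time under IgG or anti-Ly6G (3 of July 2017 and 4 of September 2017), whereas the DT groups held 4 mice at ZT4 and 3 at ZT16, all from April 2018, so that toxin, genotype and batch cannot be told apart.

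The deposited values summed to between 962649 and 1033550 per library, and no read counts were used here, so the sequencing depth behind a value is unknown. The scale is the authors' own, and the sources used here do not state whether it divides by transcript length. Levels of single genes were therefore compared between groups and not between genes. Sums over marker genes were likewise compared between groups only, and they mostly follow the markers of highest value. In whole lung, fewer cells of a type and less RNA per cell cannot be told apart. Markers of club, alveolar, ciliated, endothelial and fibroblast cells were all above 1 in at least 1 library of every group. The summed values of 10 mature neutrophil markers ran from 51.2 to 792 (median 67.5) in ZT4 control mice and from 29.4 to 63.4 (median 44.5) in ZT4 anti-Ly6G mice. At ZT16 they ran from 28.3 to 94.0 (median 60.6) in control mice, from 24.8 to 40.6 (median 31.2) in anti-Ly6G mice and, in DT mice, from 39.4 to 45.5 at ZT4 and from 31.6 to 62.4 at ZT16. Of the ZT4 control libraries, 2 from September stood apart, with sums of 205 and 792. None of the 9 neutrophil markers tested passed in the anti-Ly6G comparisons (median log2 difference -1.10 at ZT4 and -0.52 at ZT16).

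All 13 Ces genes lie on chromosome 8, in a Ces1 cluster and a separate Ces2 cluster. Promoters are shown for Ces1g, Ces1e and Ces1b because these genes rose at ZT16 in control or anti-Ly6G mice and carry the D-box, the sequence bound by the clock output factors Dbp, Tef and Hlf, spelled TTATGTAA or TTACGTAA and searched on both strands. Aldh18a1, a gene that fell at ZT16, is shown for its E-box, CACGTG, the sequence bound by the core clock activators. Each is the 250 bases before the start of a RefSeq transcript (GRCm38.p6, all 4 genes on the minus strand, printed 5′ to 3′ along the gene), and capitals mark the D-box or E-box.
Ces1g (chr8:93337210-93337459): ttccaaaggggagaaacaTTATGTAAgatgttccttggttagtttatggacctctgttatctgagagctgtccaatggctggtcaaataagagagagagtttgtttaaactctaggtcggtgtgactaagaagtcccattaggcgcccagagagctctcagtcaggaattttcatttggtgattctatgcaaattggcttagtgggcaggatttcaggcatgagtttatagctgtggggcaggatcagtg
Ces1e (chr8:93229620-93229869): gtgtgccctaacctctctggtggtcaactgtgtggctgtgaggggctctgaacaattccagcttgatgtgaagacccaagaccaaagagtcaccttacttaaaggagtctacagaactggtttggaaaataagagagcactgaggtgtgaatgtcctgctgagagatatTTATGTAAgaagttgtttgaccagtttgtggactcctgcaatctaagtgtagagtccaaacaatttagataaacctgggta
Ces1b (chr8:93079941-93080190): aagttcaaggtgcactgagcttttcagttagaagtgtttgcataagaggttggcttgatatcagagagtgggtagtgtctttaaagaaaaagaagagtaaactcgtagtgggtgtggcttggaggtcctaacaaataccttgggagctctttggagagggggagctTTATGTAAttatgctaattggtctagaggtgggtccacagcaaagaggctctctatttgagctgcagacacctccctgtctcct
Aldh18a1 (chr19:40588464-40588713): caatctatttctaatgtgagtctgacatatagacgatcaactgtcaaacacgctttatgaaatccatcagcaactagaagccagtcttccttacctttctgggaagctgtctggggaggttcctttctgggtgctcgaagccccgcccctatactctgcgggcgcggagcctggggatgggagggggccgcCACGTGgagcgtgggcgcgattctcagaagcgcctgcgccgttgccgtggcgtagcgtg

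Counted from the start, the D-box begins at -232 in Ces1g, at -81 in Ces1e and at -84 in Ces1b. A second Ces1b start holds the same site at -7. In all windows of RefSeq (250 bases before to 50 after the start), 347 of 32851 (1.06%) hold a D-box and 2349 (7.15%) an E-box. Windows were found for 52 of the 66 members and for 12 of the 17 that passed over time in control or anti-Ly6G mice. The D-box occurred in 4 of the 8 windows of members that rose (2 of them the overlapping Ces1b windows) and in 0 of the 6 windows of members that fell. The E-box occurred in 1 window of each, Aldh3a2 (at -30) and Aldh18a1 (at -59). The D-box was also found before Ces1a (at -198), Ces1c (at -94) and Akr1c18 (at -192), 3 genes too low in these lungs to be tested. The REV-ERB and ROR element AGGTCA (16.26% of all windows) occurred in 0 of the 8 and 1 of the 6 windows, the antioxidant element TGACNNNGC (12.39%) in 0 and 1, and the xenobiotic element GCGTG (32.39%) in 2 and 3. Both strands were searched for each, and windows were not given for Ces1d and Aldh2. These matches describe letters only, and neighbouring Ces1 genes arose by duplication, so their windows are not independent.

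In control mice, 11 of the 45 tested members (24.4%) changed between ZT4 and ZT16 at an adjusted p under 0.05 (limma), against 9.04% of all genes tested. Of these, 5 rose, where 4.65% of all genes did, and 6 fell, where 4.38% did. The carboxylesterases had most of their tested members among the calls, with 3 of 8 higher and 2 lower. Among the 18 aldehyde dehydrogenases 2 rose and 2 fell, and among the 10 aldo-keto reductases 2 fell. None of the 6 Ugt genes and none of the 3 sulfotransferases passed. The median log2 change of the 45 members was -0.01, near that of all genes (0.00), while their median absolute change was 0.19 against 0.10. Without the 2 September ZT4 libraries of high neutrophil marker sums, 7 members passed (6.9% of all genes did in that fit), 4 higher and 3 lower, and the calls of Ces1e, Ces2b, Aldh9a1 and Akr1c13 were lost.

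**Figure D1:**
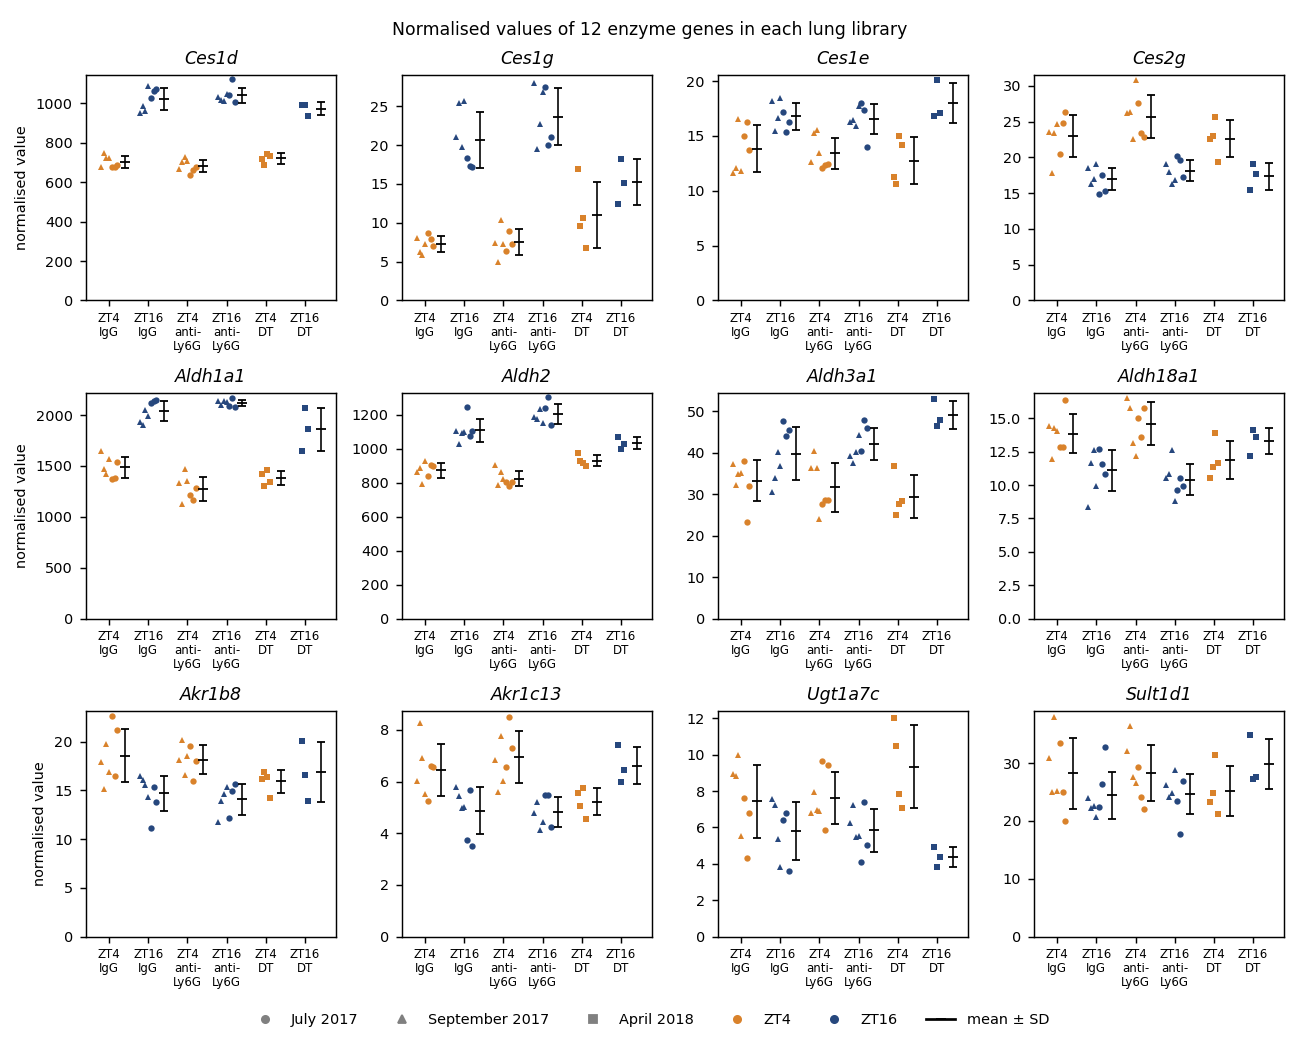
Normalised value (vertical axis, from 0) of 12 enzyme genes in each of the 35 libraries, by group, with symbols for the batch and the group's mean ± SD in black. ZT16 libraries lie wholly above ZT4 libraries for Ces1d, Aldh1a1 and Aldh2 under all 3 treatments, and for Ces1g in control and anti-Ly6G mice only. The change of Aldh2 in DT mice did not pass.

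The Ces1 genes account for the rises among the carboxylesterases. Ces1d (chromosome 8, 93166068 to 93197838, minus strand, GENCODE M21 on GRCm38) encodes a triacylglycerol hydrolase that also acts on retinyl esters. It measured 676, 689 and 747 (lowest, median and highest of 7) at ZT4 and 953, 1026 and 1087 at ZT16. The groups did not overlap. Its fold change was 1.45 (log2 0.54, SE 0.04, adjusted p = 7.68e-12), and it passed within July (0.63) and within September (0.47).

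Ces1g (93302369 to 93337308 of the same chromosome) encodes a liver-type carboxylesterase that acts in lipid metabolism. It measured 5.85, 7.33 and 8.69 at ZT4 and 17.2, 19.7 and 25.7 at ZT16. Every ZT16 library lay above every ZT4 library, and this 2.71-fold rise (log2 1.44, SE 0.15, adjusted p = 1.55e-08) was the largest change among the tested members. It was 1.13 in July and 1.67 in September, and both passed. Ces1e, known as egasyn, which holds beta-glucuronidase in the endoplasmic reticulum, measured 11.6, 13.7 and 16.5 at ZT4 and 15.4, 16.7 and 18.4 at ZT16. The groups overlapped, with 4 of 7 ZT16 libraries above all ZT4 libraries. Its rise of 0.28 (SE 0.09, adjusted p = 0.0387) passed in neither batch alone (0.12 in July and 0.40 in September), and the call was lost in 9 of the 35 fits that left out 1 library. Ces1b (0.47, SE 0.22, adjusted p = 0.173) and Ces1f (0.05, adjusted p = 0.867) did not pass.

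The Ces2 genes, which encode intestinal-type carboxylesterases, went the other way. Ces2g (chromosome 8, 104961718 to 104969537) measured 17.9, 23.6 and 26.4 at ZT4 and 14.9, 16.9 and 19.1 at ZT16. Of the ZT16 libraries, 5 of 7 lay below all ZT4 libraries. It fell by 0.43 on the log2 scale (SE 0.08, adjusted p = 0.000754), with -0.57 in July, which passed, and -0.32 in September (adjusted p = 0.114). Ces2b measured 3.87, 4.64 and 5.30 at ZT4 and 2.53, 3.36 and 4.91 at ZT16. Its fall of 0.41 (SE 0.14, adjusted p = 0.0493) lost its call in 24 of the 35 fits without 1 library, and its transcript is 90.7% identical to that of Ces2c over 57.8% of its length. Ces2e did not pass (-0.11, adjusted p = 0.810). The remaining 5 carboxylesterases, Ces1a, Ces1c, Ces1h, Ces2c and Ces2d-ps, were too low to test.

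Of the 18 aldehyde dehydrogenases tested, 2 rose in control mice, a cytosolic and a mitochondrial aldehyde-clearing enzyme. Aldh1a1 (chromosome 19, 20492715 to 20643465, plus strand), a cytosolic retinal dehydrogenase, measured 1374, 1467 and 1651 at ZT4 and 1903, 2050 and 2147 at ZT16, with no overlap. The rise was 1.37-fold (log2 0.46, SE 0.06, adjusted p = 1.01e-06), 0.58 in July and 0.37 in September, both of which passed. Aldh2 (chromosome 5, 121566027 to 121593824), the mitochondrial enzyme that oxidises acetaldehyde, measured 790, 884 and 926 at ZT4 and 1028, 1098 and 1246 at ZT16, again with no overlap. It rose 1.27-fold (log2 0.35, SE 0.05, adjusted p = 2.35e-06), 0.38 in July and 0.32 in September, and both passed.

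A pair of aldehyde dehydrogenases with roles in biosynthesis fell in control mice. Aldh9a1, which makes a precursor of carnitine, measured 43.5, 51.2 and 53.3 at ZT4 and 36.7, 39.5 and 47.7 at ZT16. It fell by 0.26 (SE 0.07, adjusted p = 0.0104), and 4 of 7 ZT16 libraries lay below all ZT4 libraries. Aldh18a1, which makes the proline precursor pyrroline-5-carboxylate, measured 12.0, 14.1 and 16.4 at ZT4 and 8.34, 11.6 and 12.7 at ZT16. It fell by 0.31 (SE 0.09, adjusted p = 0.0231), a call lost in 2 of the fits without 1 library. Aldh18a1 passed in neither batch alone (limma adjusted p = 0.431 in July and 0.158 in September), nor with only the control groups fitted (0.0578). Aldh3a2 (0.13, adjusted p = 0.0606) and Aldh6a1 (0.15, adjusted p = 0.0656) were the nearest to the threshold among the other 14, whose log2 changes ran from -0.11 for Aldh1a7 to 0.40 for Aldh1a3.

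The aldo-keto reductases that changed in control mice both fell. Akr1b8 (chromosome 6, 34354119 to 34368463, plus strand), which reduces retinal and other aldehydes, measured 15.1, 17.9 and 22.6 at ZT4 and 11.2, 15.3 and 16.5 at ZT16. The groups overlapped, and the fall was 1.25-fold (log2 -0.33, SE 0.09, adjusted p = 0.0214). Akr1c13 (chromosome 13, 4191150 to 4205596), a member of the steroid-handling 1C branch, measured 5.24, 6.58 and 8.26 at ZT4 and 3.52, 5.00 and 5.78 at ZT16, a 1.30-fold fall (log2 -0.38, SE 0.11, adjusted p = 0.0264). Each passed in neither batch alone, and the calls were lost in 3 and 4 of the fits without 1 library. Akr1c13 is 94.5% identical to Akr1c12 over the whole transcript, so reads may have been split between them, and Akr1c12 itself read -0.08 (adjusted p = 0.876). Akr1b3, the aldose reductase, came next (-0.14, adjusted p = 0.080), and the other members ran from -0.19 for Akr1b7 to 0.065 for Akr1e1.

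The conjugating enzymes showed no call in control mice. In the Ugt family the smallest p-values belonged to Ugt3a1 (0.37, SE 0.16, adjusted p = 0.143), which transfers N-acetylglucosamine, and to the phenol-conjugating Ugt1a6a (-0.19, SE 0.08, adjusted p = 0.157). In the Sult family they belonged to Sult5a1 (0.21, adjusted p = 0.228) and the catecholamine-sulfating Sult1d1 (-0.19, SE 0.12, adjusted p = 0.36). Sult1d1 read 0.07 in July and -0.39 in September. The Ugt1a genes share their last exons, so that between 50.3% and 82.7% of the exon bases of Ugt1a1, Ugt1a6a, Ugt1a6b and Ugt1a7c lie in another gene, and their values are uncertain for that reason.

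In anti-Ly6G mice, 16 of the 45 members (35.6%) changed between ZT4 and ZT16, against 20.9% of all genes tested. Of these, 10 rose, where 10.6% of all genes did, and 6 fell, where 10.4% did. The family pattern had 4 carboxylesterases higher and 1 lower, 6 aldehyde dehydrogenases higher and 2 lower, and 3 aldo-keto reductases lower, with no Ugt or Sult call. The median log2 change of the members was 0.03 (all genes -0.02) and their median absolute change 0.24 (all genes 0.13). Of the 11 members called in control mice 10 were called here, with the same sign (10 of the 16), and the exception was Ces2b (-0.36, adjusted p = 0.0559). The share of all genes called in both was not counted, so this overlap is not read as a trait of the members. The 2 comparisons share no library, but they come from 1 fit with a shared spread and batch term.

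**Figure D2:**
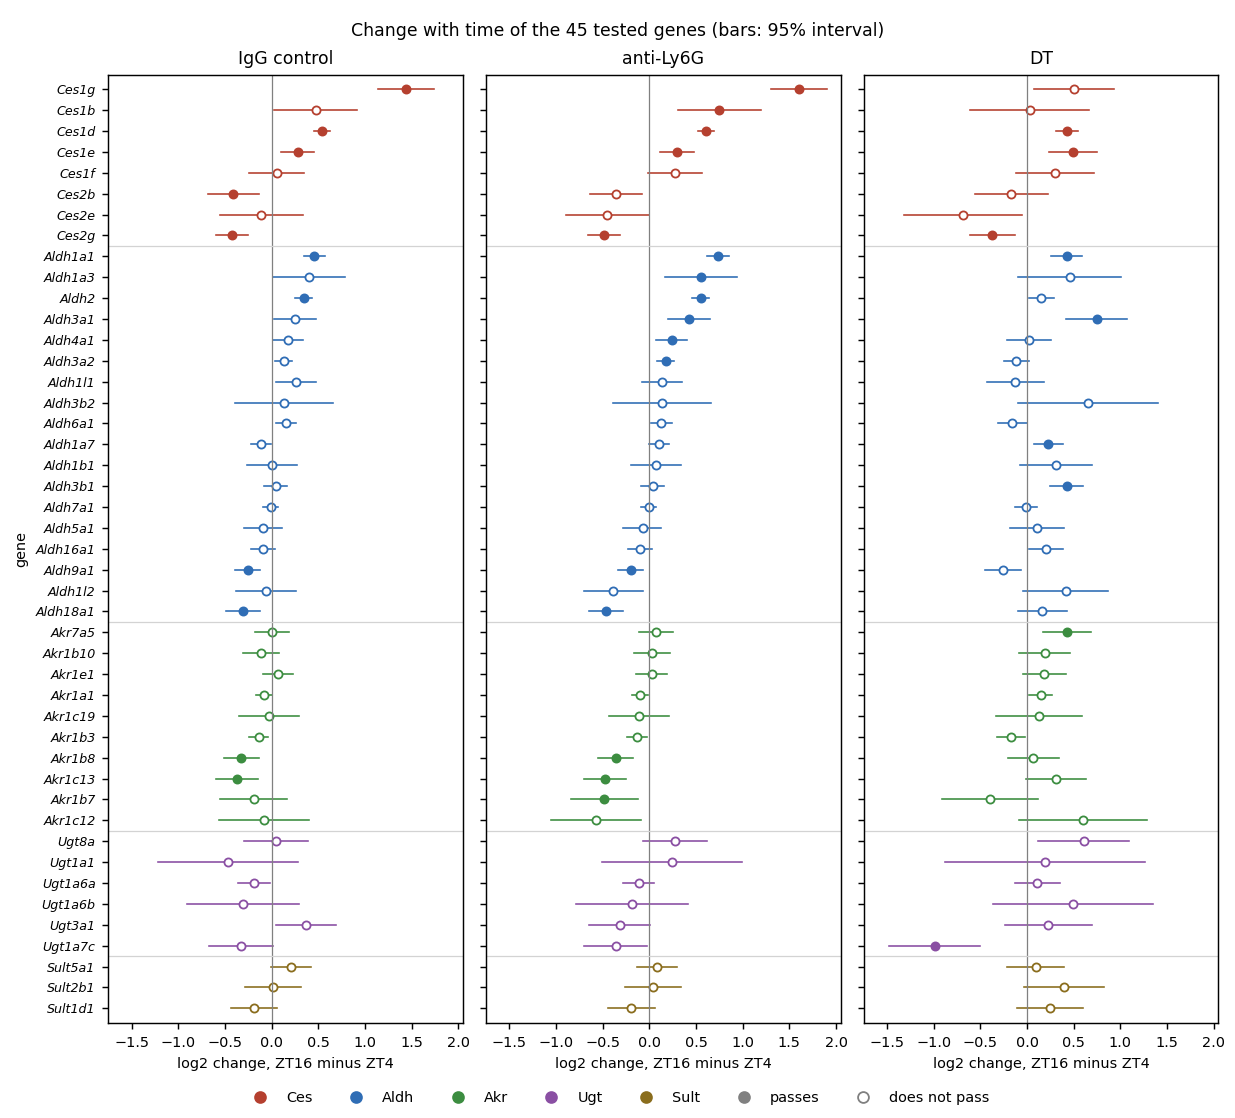
Log2 change from ZT4 to ZT16 (horizontal axis) of the 45 tested genes, ordered by family, in control, anti-Ly6G and DT mice. Filled circles passed an adjusted p under 0.05 and bars are 95% intervals. In control and anti-Ly6G mice the Ces1 calls lie right of 0 and the Ces2 and Akr calls left of it.

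The same 4 lead genes had non-overlapping groups after depletion. Ces1d measured 638, 676 and 727 at ZT4 and 1008, 1031 and 1121 at ZT16, a 1.52-fold rise (log2 0.61, SE 0.04, adjusted p = 2.55e-13). Ces1g measured 4.98, 7.29 and 10.3 at ZT4 and 19.5, 22.7 and 27.9 at ZT16, a 3.04-fold rise (1.60, SE 0.15, adjusted p = 7.59e-10). For both, all 7 ZT16 libraries were above all ZT4 libraries. Aldh1a1 measured 1130, 1287 and 1470 at ZT4 and 2084, 2127 and 2169 at ZT16 (0.74, SE 0.06, adjusted p = 1.32e-11). Aldh2 measured 778, 806 and 902 at ZT4 and 1137, 1189 and 1304 at ZT16 (0.55, SE 0.05, adjusted p = 5.58e-11). All 4 passed within July and within September. The 7 ZT16 libraries of Aldh1a1 lay close together (SD 30.8), whereas those at ZT4 spread more widely (SD 119).

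Of the 6 falls in anti-Ly6G mice, 4 were larger than 0.4 on the log2 scale. Ces2g measured 22.6, 26.2 and 30.8 at ZT4 and 16.3, 17.9 and 20.1 at ZT16, with no overlap (-0.48, SE 0.08, adjusted p = 6.96e-05). Aldh18a1 measured 12.2, 15.0 and 16.5 at ZT4 and 8.83, 10.5 and 12.6 at ZT16, where 6 of 7 ZT16 libraries were below all ZT4 libraries (-0.47, SE 0.09, adjusted p = 0.000288). Akr1c13 measured 5.597, 6.83 and 8.50 at ZT4 and 4.14, 4.77 and 5.49 at ZT16, with no overlap (-0.48, SE 0.11, adjusted p = 0.00186). These falls had the sign of those in control mice. Here too reads may have been split between Akr1c13 and Akr1c12. The latter did not pass and reached 1 in only 8 of the 35 libraries. Akr1b8 measured 15.9, 18.1 and 20.2 at ZT4 and 11.8, 14.7 and 15.7 at ZT16, also without overlap (-0.36, SE 0.09, adjusted p = 0.00517). Akr1b7 fell by 0.48 (adjusted p = 0.0452) at values between 0.478 and 1.98, a call lost in 11 fits without 1 library, and 27.2% of its exon bases overlap another gene. Aldh9a1 fell by 0.20 (adjusted p = 0.0277), a call lost in 4 such fits.

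In all, 6 members passed in anti-Ly6G mice and not in control mice, and apart from Akr1b7 they were higher at ZT16. Aldh3a2, the fatty aldehyde dehydrogenase, rose by 0.17 (SE 0.04, adjusted p = 0.0052), from 115, 120 and 132 at ZT4 to 124, 138 and 143 at ZT16. Aldh3a1, an enzyme inducible by aromatic hydrocarbons, rose by 0.42 (SE 0.11, adjusted p = 0.00573), from 24.1, 28.7 and 40.3 to 37.5, 40.3 and 47.9. Both overlapped between the times. Aldh3a2 passed in neither batch alone (limma adjusted p = 0.265 in July and 0.0692 in September). Ces1b rose by 0.75 (adjusted p = 0.0122), the retinal dehydrogenase gene Aldh1a3 by 0.55 (adjusted p = 0.0342) and the proline-degrading Aldh4a1 by 0.24 (adjusted p = 0.0291). Ces1b lay near the bottom of the scale, with a mean of 1.5, and reached 1 in 27 of the 35 libraries. It passed in neither batch alone (limma adjusted p = 0.0947 in July and 0.207 in September). The Aldh1a3 and Aldh4a1 calls were each lost in 7 fits without 1 library, and 32.5% of the exon bases of Aldh4a1 overlap Gm21969 on the same strand. In control mice the log2 changes of these 5 were 0.13, 0.25, 0.47, 0.40 and 0.18, and none of the differences between the treatments passed.

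Ces1e, called in both treatments, rose by 0.30 (SE 0.09, adjusted p = 0.0146) in anti-Ly6G mice. In these mice it passed in neither batch alone (limma adjusted p = 0.076 in July and 0.219 in September). The conjugating enzymes again gave no call there. Their smallest p-values were those of Ugt1a7c (-0.36, SE 0.17, adjusted p = 0.121), Ugt3a1 (-0.32, SE 0.16, adjusted p = 0.156), Sult1d1 (-0.19, SE 0.12, adjusted p = 0.277) and Sult5a1 (0.08, SE 0.11, adjusted p = 0.641).

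Within each batch fewer members passed, with 3 or 4 mice a group. In control mice 6 did in July, where 1.97% of all genes passed, and 5 in September, where 3.08% did. In anti-Ly6G mice 7 did in July (4.96% of all genes) and 8 in September (9.09%). The calls had the same sign in both batches, but they were chosen on the fit over both, so that this agreement is no independent check. Within-batch changes of Ces1d, Ces1g, Aldh1a1 and Aldh2 passed in both batches under both treatments.

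**Figure D3:**
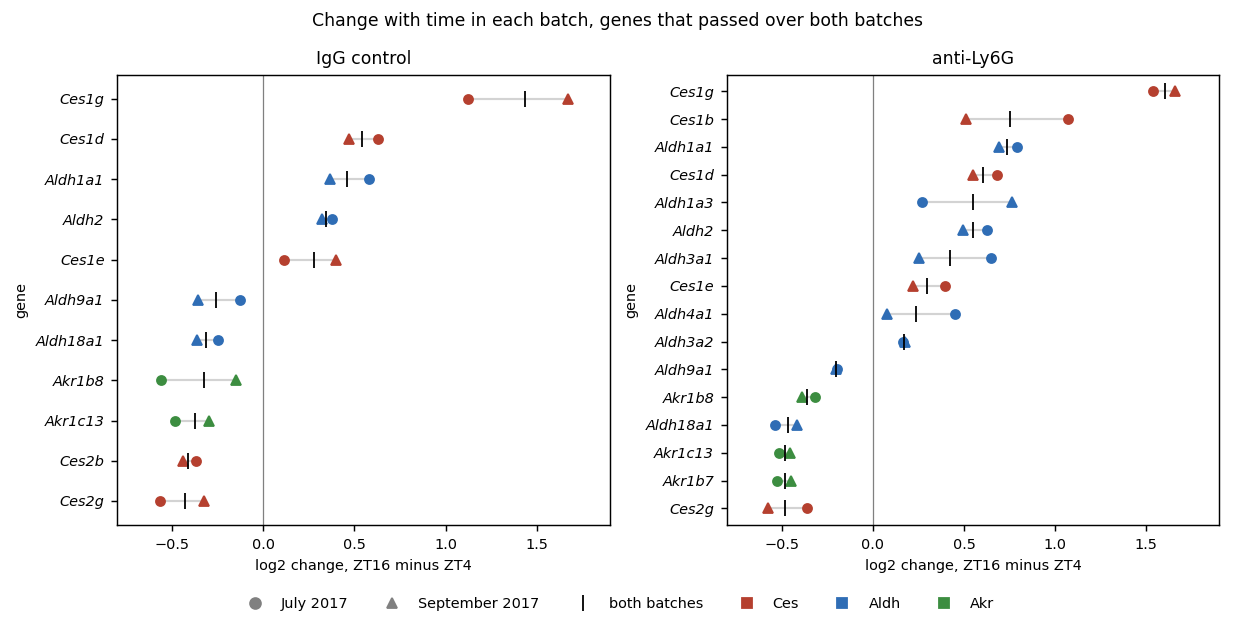
Log2 change from ZT4 to ZT16 (horizontal axis) in July 2017 (circles), in September 2017 (triangles) and over both (bars), for the 11 genes that passed in control mice and the 16 that passed in anti-Ly6G mice. The genes were chosen on both batches together, so a shared side of 0 is no independent check. The gap between batches is wide for Ces1g in control mice (1.13 and 1.67) and for Ces1b in anti-Ly6G mice (1.07 and 0.51).

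Markers of lymphocytes and of some structural cells moved with time in these same lungs. In control mice 3 of 6 T cell, 2 of 6 B cell and 2 of 6 natural killer markers fell at ZT16. Of all genes tested, 4.38% fell there. In anti-Ly6G mice 4 of 6 fell in each list, where 10.4% of all genes did. The summed B cell markers ran from 40.6 to 111 at ZT4 and from 27.8 to 72.5 at ZT16 in control mice, and from 61.3 to 137 and from 34.2 to 77.6 in anti-Ly6G mice. Smooth muscle markers fell in 2 of 6 cases in control mice (Acta2 -0.42 and Actg2 -0.61, summed 784 to 1044 at ZT4 and 666 to 891 at ZT16), and none passed in anti-Ly6G mice. Mesothelial markers fell in 6 of 7 cases in anti-Ly6G mice (summed 500 to 665 at ZT4 and 408 to 514 at ZT16) and in 1 of 7 in control mice. Club cell markers, of which 1 of 7 fell in control mice and none passed in anti-Ly6G mice, summed to between 31080 and 40380 at ZT4 and between 29950 and 38320 at ZT16 in control mice. Of 8 alveolar type 2 markers, 1 fell in control mice (Abca3, -0.37). In anti-Ly6G mice 2 of them rose and 2 fell, Abca3 (-0.32) among the latter. Of 10 fibroblast and of 7 endothelial markers, 1 each fell in control mice. In anti-Ly6G mice 1 rose and 1 fell in each of these 2 lists. The part of these cell types in the members' changes was not tested.

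Anti-Ly6G itself left no call among the members at either time. At ZT4, 0 of 45 members and 0% of all 16786 genes passed (limma), with 3 members and 1185 genes at an unadjusted p under 0.05. At ZT16, 0 of 45 and 0% of all genes passed, with 2 members and 701 genes at an unadjusted p under 0.05. The lowest adjusted p of a member was 0.389 at ZT4 and 0.966 at ZT16. The median absolute log2 difference of the members was 0.07 at ZT4 and 0.06 at ZT16, the same to 2 decimals as over all genes. By family, the median log2 difference at ZT4 was -0.01 for Ces, -0.02 for Aldh, 0.02 for Akr, -0.04 for Ugt and 0.01 for Sult. At ZT16 it was 0.05 for Ces, 0.02 for Aldh, -0.01 for Akr, 0.02 for Ugt and -0.07 for Sult. All 5 families thus had medians within 0.1 of 0 at both times.

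The members with the smallest p-values at ZT4 were a pair of neighbouring cytosolic aldehyde dehydrogenase genes and Ugt3a1. Aldh1a1 measured 1374, 1467 and 1651 in control and 1130, 1287 and 1470 in anti-Ly6G mice, and 6 of the 7 anti-Ly6G libraries lay below all control libraries. Its difference was -0.22 (95% interval -0.34 to -0.10, adjusted p = 0.389). Aldh1a7, whose transcript is 88.8% identical to that of Aldh1a1 over 98.5% of its length, measured 164, 179 and 197 in control and 139, 154 and 172 in anti-Ly6G mice (-0.21, 95% interval -0.32 to -0.10, adjusted p = 0.389). Here too 6 of 7 anti-Ly6G libraries were below all control libraries. Ugt3a1 measured 0.288, 0.887 and 1.22 in control and 0.949, 1.46 and 1.97 in anti-Ly6G mice (0.59, 95% interval 0.27 to 0.92, adjusted p = 0.443), at the bottom of the scale. None of these differences passed.

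At ZT16 the smallest p-values were those of Aldh2 (0.12, 95% interval 0.03 to 0.21, adjusted p = 0.966), Aldh9a1 (0.16, 95% interval 0.02 to 0.29, adjusted p = 0.966) and Aldh1l2 (-0.24, 95% interval -0.56 to 0.08, adjusted p = 0.966). For Ces1d, the difference at ZT16 was 0.03 with a 95% interval from -0.06 to 0.11, and at ZT4 it was -0.04, from -0.12 to 0.04. For Ces1g the intervals were wider, from -0.11 to 0.49 at ZT16 and from -0.27 to 0.33 at ZT4.

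The time change also did not differ between anti-Ly6G and control mice at the threshold for any member (0 of 45, and 0% of all genes), with 4 members and 1007 genes at an unadjusted p under 0.05. The 3 members with the smallest p were Aldh1a1, Aldh2 and Ugt3a1. The rise of Aldh1a1 was larger by 0.28 in anti-Ly6G mice (95% interval 0.11 to 0.44, unadjusted p = 0.00146, adjusted p = 0.812), and that of Aldh2 by 0.20 (0.07 to 0.34, adjusted p = 0.812). Ugt3a1 read 0.37 in control mice and -0.32 in anti-Ly6G mice, a difference of -0.69 (-1.15 to -0.23, adjusted p = 0.812).

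**Figure D4:**
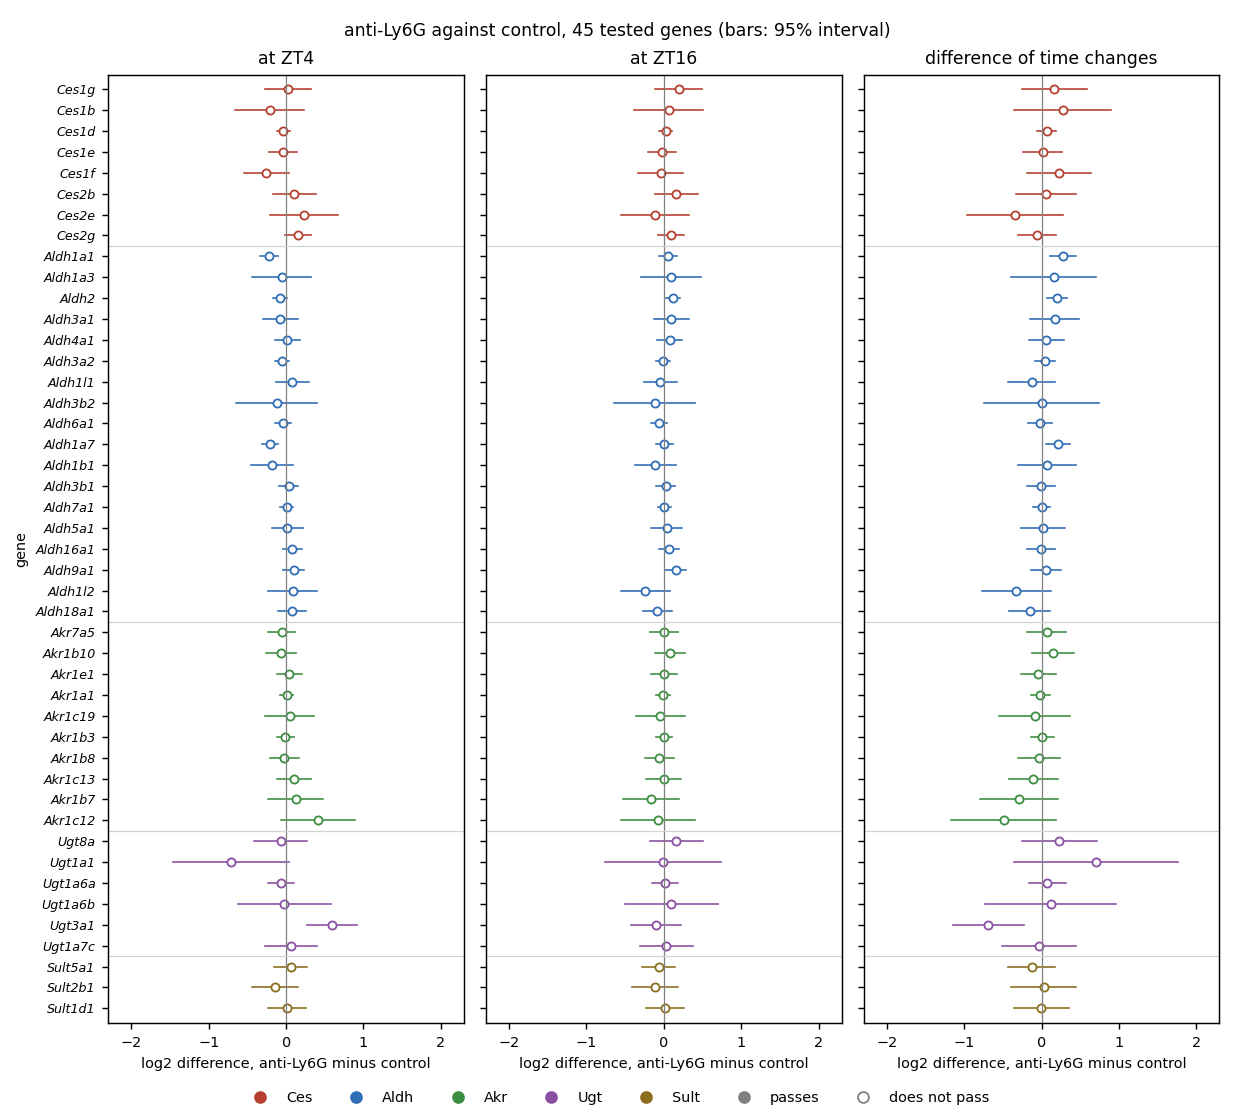
Log2 difference between anti-Ly6G and control mice (horizontal axis) at ZT4, at ZT16 and between their time changes, for the 45 tested genes with 95% intervals. All circles are open, since no gene passed, and the points of Aldh1a1, Aldh1a7 and Ugt3a1 at ZT4 have intervals that leave out 0.

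In DT mice, 9 of the 45 members (20%) changed between ZT4 and ZT16, against 15.3% of all genes tested. Of these, 7 rose, where 5.3% of all genes did, and 2 fell, where 9.98% did. With median centring the split was 6 higher and 3 lower. By family, 2 carboxylesterases rose and 1 fell, 4 aldehyde dehydrogenases and 1 aldo-keto reductase rose, and 1 glucuronosyltransferase fell. The median log2 change was 0.19 in the members and -0.01 over all genes. The family medians were all positive here (Ces 0.17, Aldh 0.18, Akr 0.17, Ugt 0.21 and Sult 0.25). In control mice they were 0.17 for Ces, 0.09 for Aldh, -0.10 for Akr, -0.25 for Ugt and 0.01 for Sult, and in anti-Ly6G mice 0.29, 0.12, -0.12, -0.15 and 0.04 in the same order. These 3 and 4 libraries share 1 batch, and 4 of the 9 calls (Ces1e, Ces2g, Aldh1a7 and Akr7a5) were lost when 1 DT library was left out.

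The members Ces1d, Ces1e, Ces2g and Aldh1a1 passed with the same sign under all 3 treatments. The share of all genes that did so was not counted. In DT mice Ces1d measured 718, 685, 744 and 733 at ZT4 and 989, 991 and 935 at ZT16, with no overlap (0.43, SE 0.06, adjusted p = 6.74e-06). Ces1e measured 11.3, 10.7, 15.0 and 14.1 at ZT4 and 16.8, 20.1 and 17.1 at ZT16 (0.49, SE 0.13, adjusted p = 0.00787). Ces2g measured 22.6, 23.0, 25.6 and 19.3 at ZT4 and 15.4, 19.1 and 17.6 at ZT16 (-0.37, SE 0.12, adjusted p = 0.0306). For all 3 genes the ZT16 libraries lay on 1 side of the ZT4 libraries. Aldh1a1 measured 1419, 1303, 1459 and 1343 at ZT4 and 1648, 2071 and 1868 at ZT16, all higher (0.43, SE 0.08, adjusted p = 0.000686).

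The other DT calls were 3 aldehyde dehydrogenases, 1 aldo-keto reductase and 1 glucuronosyltransferase. Aldh3a1 measured 36.8, 24.9, 27.6 and 28.4 at ZT4 and 53.0, 46.5 and 48.0 at ZT16, with no overlap (0.74, SE 0.16, adjusted p = 0.00188). Aldh3b1, which oxidises aldehydes from lipid peroxidation, measured 85.9, 92.3, 92.6 and 90.3 at ZT4 and 115, 141 and 110 at ZT16 (0.42, SE 0.09, adjusted p = 0.00142). Akr7a5, an aflatoxin aldehyde reductase, measured 18.3, 15.4, 18.2 and 20.4 at ZT4 and 22.9, 27.9 and 22.4 at ZT16 (0.42, SE 0.13, adjusted p = 0.0209). In each of them all 3 ZT16 libraries were above all 4 ZT4 libraries. With so few libraries, the groups also separated for Aldh2, Aldh3a2, Aldh3b2, Aldh16a1, Akr1a1, Akr1c13 and Ugt8a, none of which passed. The share of all genes that separated was not counted. Aldh1a7 rose by 0.23 (SE 0.08, adjusted p = 0.0404) with overlap, from 149, 141, 163 and 162 to 183, 203 and 155. Ugt1a7c, a phenol-conjugating enzyme, fell 1.99-fold, from 12.0, 10.46, 7.82 and 7.09 to 4.91, 3.84 and 4.37 (log2 -0.99, SE 0.24, adjusted p = 0.00508), without overlap. Its exons share 54.6% of their bases with other genes, and its closest relative Ugt1a6b, 98.9% identical over 69.7% of the transcript, read the other way. Ugt1a6b measured 2.08, 6.72, 3.64 and 5.74 at ZT4 and 4.00, 8.29 and 6.75 at ZT16, with overlap (0.49, SE 0.42, adjusted p = 0.458), and Ugt1a6a read 0.11 (adjusted p = 0.578). Reads may have been split differently among these genes, which was not tested, so the Ugt1a7c value is uncertain.

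Club cell markers rose in DT mice beside these genes, where 5.3% of all genes rose and 9.98% fell. Of 7 markers 6 rose from ZT4 to ZT16 (median log2 change 0.47), and their summed values were 26030, 28910, 33990 and 32340 at ZT4 and 43770, 47830 and 39070 at ZT16. Ciliated cell markers rose in 4 of 7 cases (summed 878 to 1082 at ZT4 and 1093 to 1374 at ZT16). Alveolar type 2 markers fell in 4 of 8 (median -0.31; Lamp3 -0.56, Etv5 -0.50, Abca3 -0.51 and Slc34a2 -0.50), while their sums overlapped (22740 to 27810 and 23050 to 25780). Fibroblast markers fell in 6 of 10, with sums of 4800 to 5287 and 3479 to 4450, and endothelial markers in 4 of 7, with sums of 3647 to 4144 and 2769 to 3135. The part of these cells in the members' changes was not tested, and no such shift in club cell markers was called in control or anti-Ly6G mice, where 1 of 7 and 0 of 7 fell.

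For 8 of the 45 members (17.8%) the time change differed between DT and control mice, against 13.8% of all genes tested. In 5 the difference was positive (4.93% of all genes) and in 3 negative (8.86%). With quantile normalisation 5 of 45 members passed, 4 positive and 1 negative, beside 12.4% of all genes, so that the members' share was then no higher than that of all genes. Each of the 8 calls was lost in at least 1 of the 35 fits without 1 library, and their number then ranged from 2 to 10. It was 2 without the second ZT16 DT library, 3 without the first ZT4 DT library and 4 without the first ZT16 DT library.

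Ces1g gave the largest negative difference. In DT mice it measured 16.9, 9.64, 10.7 and 6.80 at ZT4 and 12.4, 18.2 and 15.2 at ZT16, so that the groups overlapped and the change (0.51, SE 0.21, adjusted p = 0.0954) did not pass. Against the rise of 1.44 in control mice the difference was -0.93 (SE 0.26, adjusted p = 0.0148), with adjusted p = 0.0625 without the first ZT4 DT library, where Ces1g was highest, and 0.0645 without the first ZT16 DT library. Ces1d, its neighbour in the cluster, showed no such difference at the threshold (-0.11, 95% interval -0.25 to 0.04, adjusted p = 0.321).

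Among the reductases and dehydrogenases, Akr1c13 measured 5.56, 5.04, 5.74 and 4.56 at ZT4 and 7.40, 5.99 and 6.45 at ZT16 in DT mice, all higher, whereas it fell in control mice. The difference was 0.69 (SE 0.19, adjusted p = 0.0164). Aldh18a1 went from 10.53, 11.4, 13.9 and 11.7 to 12.2, 14.1 and 13.6 (difference 0.47, SE 0.16, adjusted p = 0.0386). Both thus read positive in DT mice (0.31 and 0.16, neither passing) and negative in control mice. The difference was 0.38 for Aldh3b1 (adjusted p = 0.016), 0.34 for Aldh1a7 (adjusted p = 0.0151) and 0.23 for Akr1a1 (adjusted p = 0.0369), the aldehyde reductase of ascorbate synthesis. Akr1a1 measured 363, 401, 407 and 430 at ZT4 and 447, 435 and 443 at ZT16 in DT mice, all higher. It was -0.31 for Aldh6a1 (adjusted p = 0.0236), which acts in valine breakdown, and -0.24 for Aldh3a2 (adjusted p = 0.0341). Aldh3a2 measured 128, 134, 125 and 132 at ZT4 and 116, 123 and 120 at ZT16 in DT mice, where every ZT16 library was below every ZT4 library. In the same comparison 5 of 7 club cell markers (median 0.62), 4 of 7 ciliated and 3 of 6 smooth muscle markers differed upward. Of all genes tested, 4.93% differed upward and 8.86% downward. Downward differences were found for 4 of 10 fibroblast, 3 of 7 endothelial and 1 of 8 alveolar type 2 markers, and the part of these cells in the members' differences was not tested.

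**Figure D5:**
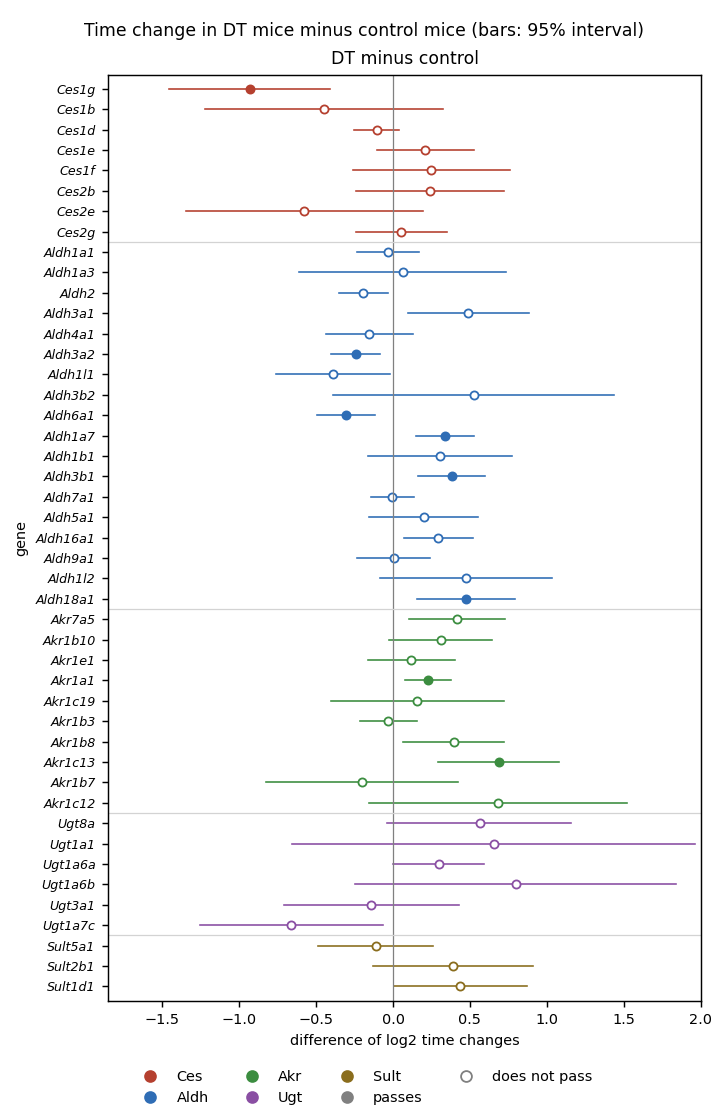
Difference between the time change in DT mice and that in control mice (horizontal axis, log2) for the 45 tested genes, with 95% intervals, filled where the adjusted p was under 0.05. Ces1g lies farthest left among the filled points (-0.93) and Akr1c13 farthest right (0.69).

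Genes that regulate or work beside the members were followed as lists. Of all genes tested, 9.04% passed over time in control mice, 20.9% in anti-Ly6G mice and 15.3% in DT mice. Of 14 tested xenobiotic sensors and clock output regulators, 2 rose and 2 fell in control mice, 6 and 2 in anti-Ly6G mice, and 1 and 0 in DT mice. Nr1d1, the clock repressor REV-ERB alpha, fell by 3.40 (SE 0.31, adjusted p = 1.16e-09) in control mice, and the D-box activator Dbp by 2.19 (SE 0.37, adjusted p = 0.000135). Both also fell in anti-Ly6G mice, by 3.10 and 1.67. In DT mice neither passed, at -0.51 for Nr1d1 and 0.03 for Dbp, and both differences between DT and control mice passed (2.89 and 2.22). Tef and Hlf, the other D-box activators, read 0.30 and 0.28 in control mice (adjusted p = 0.166 and 0.170) and rose by 0.52 and 0.59 in anti-Ly6G mice. In DT mice Nr1i2, the pregnane X receptor, rose by 0.92 (adjusted p = 0.0116). Nfe2l2, the antioxidant regulator NRF2, rose by 0.25 in control and by 0.26 in anti-Ly6G mice. Arnt, the partner of the aryl hydrocarbon receptor, rose by 0.15 in control and by 0.21 in anti-Ly6G mice.

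The alcohol dehydrogenases and carbonyl reductases, which make or use the same aldehydes, had 4 of 14 higher and 3 lower in control mice, 5 and 1 in anti-Ly6G mice, and 4 and 0 in DT mice. Hsd11b1, which activates glucocorticoids, rose by 0.51 and 0.79 in control and anti-Ly6G mice, and Sord, sorbitol dehydrogenase, by 0.29 and 0.43. In DT mice Adh7, a retinol-oxidising alcohol dehydrogenase, rose by 0.68 and the lung carbonyl reductase gene Cbr2 by 0.44. Both also rose in anti-Ly6G mice (0.35 and 0.36), and neither time change differed between DT and control mice at the threshold. Of 19 other phase I and II genes 4 rose and none fell in control mice, led by the lactonase gene Pon3 (0.35, adjusted p = 0.000534) and Cyb5a (0.17). The split was 3 and 1 in anti-Ly6G mice and 2 and 2 in DT mice. Of 12 transporters 2 rose and 2 fell in control mice, among them the organic cation transporter gene Slc22a3 (-0.99) and the efflux pump gene Abcc4 (-0.63). The counts were 3 and 3 in anti-Ly6G mice and 1 and 2 in DT mice. The shares of all genes were 9.04% in control, 20.9% in anti-Ly6G and 15.3% in DT mice.

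The remaining lists covered retinoids, lipids and conjugation. Most of their counts were near or below the shares of all genes (9.04% in control, 20.9% in anti-Ly6G and 15.3% in DT mice). Of 12 retinoid genes, 0 passed in control mice, 1 rose (Rdh11, 0.20) and 1 fell (Crabp1, -1.03) in anti-Ly6G mice, and 1 fell in DT mice (Rarg, -0.28). Of 11 other lipid hydrolases, 1 fell in control mice (Abhd2, -0.18), 4 rose in anti-Ly6G mice, led by Abhd5 (0.31), an activator of fat breakdown, and 3 fell in DT mice, led by Abhd2 (-0.63). Of 12 genes that supply or undo conjugation, 1 fell in control mice (Slc35b2, the sulfate donor transporter, -0.28), 3 fell in anti-Ly6G mice and 1 in DT mice (Arsa, -0.53). The members' own pairs were compared over the 28 control and anti-Ly6G libraries after group and batch means were removed. Of 136 pairs among the 17 members called there over time, Aldh9a1 and Aldh4a1 had the highest correlation (r = 0.676, permutation p = 0.00036, adjusted 0.049; rho = 0.693, permutation p = 0.00045, adjusted 0.0612). Without the 2 libraries farthest from the median it was 0.689, in July (12 libraries) 0.554 and in September (16 libraries) 0.730.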

How the data were processed

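The measurements are polyA RNA-seq of 35 perfused left lung lobes. The deposited table holds 1 normalised value per gene and library, a signal on a scale set by the authors; it has no zeros and its normalisation and any batch adjustment are not given in the sources used here. CASAVA 1.8.2, cutadapt, RSEM 1.2.20 and kallisto 0.43.1 are named in the submitters' processing notes, with the build GRCm38, without their roles. A single-cell amplification kit was used on the RNA, per the labels' protocols, which can widen the spread of low genes.

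The table's columns name group and batch but no single mouse; libraries are numbered here by their order in the table. Tests covered the 16786 of 22211 genes that reached 1 in 3 or more libraries, fitted on log2(value + 0.5) with limma 3.58.1 (R 4.3.3), with trend, a mean for each of 6 groups and a September term, 28 residual degrees of freedom and Benjamini-Hochberg adjustment over all genes tested; tests are two-sided with a threshold of 0.05. Log2 changes are on this scale, which understates low genes. The share of all genes whose groups do not overlap was not counted. A lack of overlap therefore describes the values and adds no support to a call. p-values rest on 1 spread between mice within groups, shared over all 6 groups and 35 libraries. The DT tests therefore lean on libraries of other batches and another genotype. With only the DT groups fitted, Ces2g (limma adjusted p = 0.0519) and Aldh1a7 (0.118) lost their calls over time. The script was tested on simulated data. Promoters came from RefSeq (GRCm38.p6) and exon overlaps from GENCODE M21. Members named are those that passed in any comparison and untested members. The 2 of smallest p in a family with no call over time and the 3 of smallest p in each anti-Ly6G comparison are also named. Up to 3 called genes per list are named. Other list genes were added after their values were seen: Tef, Hlf and Arnt in control mice, Tef, Dbp, Nfe2l2 and Adh7 in anti-Ly6G mice, and Dbp and Nr1d1 in DT mice. So were other members named for their range or separated groups. The members and lists were chosen with earlier results of these data known. The alternatives were other pseudocounts, filters, scalings, variance settings, single batches and leaving out each library.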

Additional observations from a re-analysis of the deposited data

Results flagged for a closer look

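Of 140 groups checked over 28 named members, 8 held 1 library far from the rest, and chance alone flags about 1 in 20 groups. The second July library of ZT16 anti-Ly6G mice was high for Ces1d (1121, the next 1047) and low for Aldh3a2 (124, the next 135). The first July library of ZT16 control mice was high for Aldh2 (1246, the next 1106), and the second July library of ZT4 control mice was low for Aldh3a1 (23.3, the next 32.0). Single high values were found for Ces2b in ZT4 anti-Ly6G mice (7.56, September library 1), for Aldh1l2 in ZT16 anti-Ly6G mice (2.78, September library 3) and for Ces1b in ZT4 DT mice (1.91, library 1). Aldh1a3 was low in library 2 of ZT4 DT mice (1.22).

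For 8 members a test found the time change to differ between DT and control mice, 2 sets of libraries that also differ in genotype and batch. The differences were -0.931 for Ces1g, 0.337 for Aldh1a7, 0.381 for Aldh3b1, -0.308 for Aldh6a1, -0.242 for Aldh3a2, 0.474 for Aldh18a1, 0.688 for Akr1c13 and 0.228 for Akr1a1 on the log2 scale.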

How the results depend on the processing

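Counts of called members moved by over 1.5 times in these cases. In control mice 11 (9.04% of all genes passed) became 7 with only the groups compared (7.41%), 6 with July libraries only (1.97%) and 5 with September libraries only (3.08%). It became 7 (6.9%) without the 2 September ZT4 control libraries of high neutrophil marker sums, an alternative chosen after seeing the data, and Ces1e, Ces2b, Aldh9a1 and Akr1c13 lost their calls there. In anti-Ly6G mice 16 (20.9%) became 7 with July (4.96%) and 8 with September libraries only (9.09%). The 8 differences between DT and control mice (13.8%) became 5 with quantile normalisation (12.4%) and 5 with only the groups compared (13.5%). Leaving out each library in turn gave 7 to 12 in control mice (7 without the third July ZT4 library and 7 without the first July ZT16 library), 13 to 17 in anti-Ly6G mice, 6 to 10 in DT mice and 2 to 10 for DT against control; the anti-Ly6G comparisons stayed at 0. Calls kept in every such fit were 6 of 11 (Ces1d, Ces1g, Ces2g, Aldh1a1, Aldh2 and Aldh9a1), 12 of 16, 5 of 9 and 0 of 8. Of 61 named results, 28 kept their direction and side of the threshold in every alternative that could be run for them; DT comparisons could not be run in July or September alone, and low genes dropped out of the strictest filter. Sult1d1 reversed in control mice in July (0.069), and Sult5a1 in anti-Ly6G mice in September (-0.025); the cause was not tested. No paired analysis was possible because the columns carry no replicate number that matches a sample's title. Genes near a value of 1 are the least certain, and depth is unknown.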
